A study of Homo sapiens with 21 samples.

Results

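The 40 genes described here are known to be induced by interferon, the antiviral cytokine, and were followed through RNA-seq libraries of FADU cells, a human line from a cancer of the head and neck, and BFTC909 cells, a human line from a transitional cell carcinoma of the renal pelvis. They were chosen as a group on measured values, in earlier readings of these same libraries. The group was noted as higher in hypoxic than in normoxic FADU cells and higher in BFTC909 cells labelled METTL4-si than in their controls. It was also noted as lower in FADU cells that overexpressed METTL4, and single members could differ from the group. The members are 40 of the 20970 genes listed in at least 1 of the 4 tables of values. All 40 were listed in the FADU knockdown and the FADU overexpression tables, 38 in the BFTC909 knockdown table, which has no IFITM1 and no RSAD2, and 39 in the FADU METTL4 mutant table, which has no BST2. There were 37 members in all 4 tables.

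The study asked how METTL4, a DNA N6-adenine methyltransferase, takes part in the response of tumor cells to low oxygen. In each line, the knockdown experiment had 2 libraries of Scramble-si cells at 18% O2 (normoxia), 2 of Scramble-si cells at 1% O2 (hypoxia) and 2 of METTL4-si cells at 1% O2, all kept in their condition for 18 h in DMEM with 10% FBS. The overexpression experiment had 2 libraries each of FADU cells with a control vector, with METTL4 or with the lncRNA RP11-390F4.3, all in normoxia. The methods of the study describe stable plasmid transfection, with METTL4 in pcDNA3 and RP11-390F4.3 in pcDNA3.1(+). They do not state the backbone of the control vector of these libraries. The mutant experiment had 1 library of hypoxic FADU CRISPR control cells and 1 from each of 2 hypoxic clones, derived from single cells, in which prime editing had changed the catalytic DPPW motif of METTL4 to APAW. The labels call the knockdown cells siRNA cells, whereas the methods of the study describe lentiviral vectors and antibiotic-selected stable clones. No source states that the libraries of a group came from separate cultures, so every spread and p-value here covers the difference between these libraries, which may be technical. RP11-390F4.3 values stand under another column name, and their group was assigned by elimination.

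A value is the deposited read count scaled to library size (CPM) by the TMM method, and a difference is given on the scale of log2(value + 1), which understates the change of low genes. Each library held 17781791 to 25410656 reads on genes. METTL4 RNA itself had values of 26.6 and 25.3 in the hypoxic Scr-si libraries of FADU and 24.2 and 27.1 in those labelled METTL4-si. This transcript thus showed no knockdown in FADU and did not bear out the label. In BFTC909 METTL4 had 19.0 and 15.6 in hypoxic Scr-si and 14.4 and 12.2 in METTL4-si libraries. These groups did not overlap, and the difference was just short of 1.3-fold on the log2(value + 1) scale. In METTL4-OE cells METTL4 stood at 158 and 139 against 35.4 and 32.7 with the control vector. CA9, a carbonic anhydrase and a standard hypoxia-induced gene, had values of 2.33 and 2.55 in normoxic FADU, 31.0 and 37.8 in hypoxic Scr-si cells and 1.87 and 2.22 in hypoxic METTL4-si cells. It had values of 0.358 and 1.17, 54.0 and 56.2, and 5.53 and 5.84 in the same groups of BFTC909. Squamous keratinocyte markers such as KRT5 and KRT14 were summed at 1566 to 3729 in FADU. In BFTC909 the summed simple and urothelial markers stood at 20.9 to 84.6 outside METTL4-si replicate 2, with only 4 of 9 in the table, and the fibroblast collagen list was at 1245 to 4901, so the defining epithelial markers of that line were low or absent. Some libraries also stood apart from their groups. A list of 9 breast luminal markers, of which 5 are in the FADU knockdown table, was summed at 466 in FADU METTL4-si replicate 1 and 93.4 in FADU normoxia replicate 1, against 4.47 to 8.40 in the other 4 libraries, and TFF1, a defining marker, was at 0 in 4 of the 6. In the FADU knockdown table COL3A1, a fibroblast collagen, was at 109 in METTL4-si replicate 1 and 20.3 in normoxia replicate 1. It was at most 0.0447 in the other 4 libraries. The luminal sum was 35.04 in RP11-390F4.3-OE library 2 and 4.03 to 6.33 in the other libraries of the overexpression table, with 3 markers listed. In BFTC909 GREB1 was the 1 marker listed, at 121 in METTL4-si replicate 2, 10.6 in METTL4-si replicate 1 and 1.52 to 3.20 in the Scr-si libraries. Results that rest on those libraries are given with and without them. Leukocyte markers were summed at 1.25 to 6.59 in every library.

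Cells that detect interferon through its surface receptors activate the kinases JAK1 and TYK2, which phosphorylate STAT2, and STAT2 joins IRF9 in a complex that binds interferon-stimulated response elements in promoters. The genes switched on this way block viral entry, replication or release, sense viral RNA, or feed back on the pathway. IRF1 and IRF7 are induced transcription factors of the same family as IRF9. The members were grouped by what they are known to do: restriction of virus entry, RNA or egress (18 genes), the 2′-5′-oligoadenylate synthetases that activate RNase L, with the related OASL (4), conjugation of the ubiquitin-like ISG15 and the DTX3L-PARP ligases (7), RNA sensors (2), signalling (4) and other interferon-induced genes (5).

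The members lie on 16 chromosomes, with several families side by side in GRCh37 (GENCODE 44, lifted to that build). IFIT2, IFIT3, IFIT1 and IFIT5 span chr10:91043451-91181362 on the plus strand, OAS1, OAS3 and OAS2 span chr12:113343661-113449528, HERC6 and HERC5 span chr4:89299891-89427314, and IFI44L and IFI44 span chr1:79085587-79129763. MX2 and MX1 are neighbours on chromosome 21, and SAMD9 and SAMD9L on chromosome 7. CMPK2 and RSAD2 overlap head to head on opposite strands, as do PARP9 and DTX3L, and 12 members in all overlap another gene of the tables. The library kit kept strand, but the strand setting of the counting is not given in the sources used here, so reads of such pairs may be shared.

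Promoter windows of 300 bases, from 250 before to 50 after a start site, were taken from RefSeq (GRCh38.p14) and were found for 32 of the 40 genes, in 42 windows since some genes have several start sites. The letters GAAANNGAA of an interferon-stimulated response element were searched on both strands, so that a match may lie on the opposite strand and is then read in reverse complement. They were present in 69.0% of the 42 member windows, and in 24 of the 32 genes, against 8.11% of all 35116 windows of the table. The letters TTCNNNGAA of a gamma-activated site, which read the same on both strands, were present in 26.2% of the member windows against 7.66% of all windows, and in 5 genes a match of one motif overlapped a match of the other. The 8 genes whose windows did not hold the first motif were HERC6, IFI35, IRF1, IRF9, OAS1, SAMD9L, STAT2 and XAF1. These letters are a description of the windows and not evidence of binding. The windows of 6 members on which the comparisons turn are shown here, with the matches to GAAANNGAA in capitals, 5′ to 3′ along the gene.
IFI6, chr1:27672143-27672442, minus strand: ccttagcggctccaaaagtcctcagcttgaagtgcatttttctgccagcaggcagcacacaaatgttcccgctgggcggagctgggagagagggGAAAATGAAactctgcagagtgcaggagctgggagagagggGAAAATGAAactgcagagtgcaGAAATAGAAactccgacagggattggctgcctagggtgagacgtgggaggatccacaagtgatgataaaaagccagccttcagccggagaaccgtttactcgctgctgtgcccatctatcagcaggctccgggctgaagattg
BST2, chr19:17405581-17405880, minus strand: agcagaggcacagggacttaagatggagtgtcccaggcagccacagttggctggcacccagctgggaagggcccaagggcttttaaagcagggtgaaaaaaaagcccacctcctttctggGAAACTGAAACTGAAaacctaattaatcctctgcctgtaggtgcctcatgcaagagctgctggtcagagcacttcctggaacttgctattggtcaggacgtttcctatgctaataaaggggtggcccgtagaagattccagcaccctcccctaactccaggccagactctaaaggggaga
IFI27, chr14:94110486-94110785, plus strand: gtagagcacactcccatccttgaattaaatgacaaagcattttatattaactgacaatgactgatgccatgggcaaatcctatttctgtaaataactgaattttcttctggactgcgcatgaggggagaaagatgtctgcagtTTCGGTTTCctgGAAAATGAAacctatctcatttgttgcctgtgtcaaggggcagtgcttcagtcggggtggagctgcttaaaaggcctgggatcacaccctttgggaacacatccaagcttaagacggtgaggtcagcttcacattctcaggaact
IFIT3, chr10:89332279-89332578, plus strand: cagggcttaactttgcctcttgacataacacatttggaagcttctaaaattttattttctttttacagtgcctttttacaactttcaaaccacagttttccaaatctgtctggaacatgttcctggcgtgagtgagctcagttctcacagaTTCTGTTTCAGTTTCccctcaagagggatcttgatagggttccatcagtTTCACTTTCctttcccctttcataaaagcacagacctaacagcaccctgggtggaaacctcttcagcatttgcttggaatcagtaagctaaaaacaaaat
ISG15, chr1:1013247-1013546, plus strand: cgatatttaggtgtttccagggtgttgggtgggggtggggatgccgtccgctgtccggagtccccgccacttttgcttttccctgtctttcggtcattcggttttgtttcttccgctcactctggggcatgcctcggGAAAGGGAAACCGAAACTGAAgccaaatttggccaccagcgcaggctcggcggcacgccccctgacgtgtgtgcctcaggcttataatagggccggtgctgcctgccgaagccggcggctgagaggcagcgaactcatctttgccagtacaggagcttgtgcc
IFI44L, chr1:78620198-78620497, plus strand: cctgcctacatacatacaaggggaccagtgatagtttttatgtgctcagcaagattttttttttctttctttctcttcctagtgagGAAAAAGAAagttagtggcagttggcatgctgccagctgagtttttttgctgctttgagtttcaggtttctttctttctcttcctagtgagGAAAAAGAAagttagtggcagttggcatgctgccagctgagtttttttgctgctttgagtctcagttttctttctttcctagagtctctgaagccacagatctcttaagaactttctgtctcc

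In these windows the matches fell upstream of the start site. IFI6 held 3, at bases -156, -115 and -93 from its start site, and ISG15 held 3 that began 6 bases apart, at -113, -107 and -101. The plot of motif positions shows the same for most of the members, with exceptions such as CMPK2 and a window of MX1 just after the start site.

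**Figure D1:**
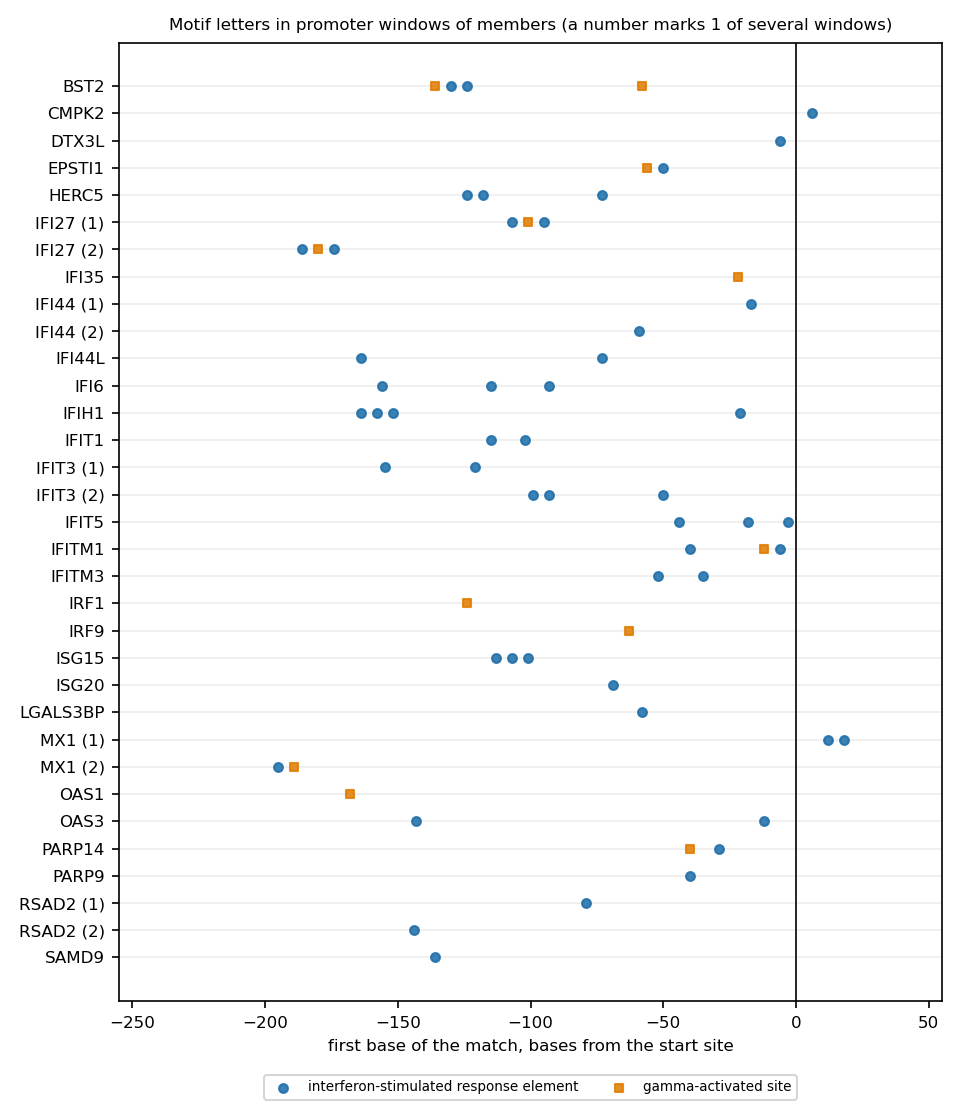
Each row is a promoter window of a member with at least 1 match, and the horizontal axis gives the first base of the match in bases from the start site, with circles for the interferon-stimulated response element and squares for the gamma-activated site. Most matches lie within about 200 bases upstream, and the element of CMPK2 lies after the start site, at base 6.

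Across the libraries the members moved by table rather than as 1 block. The heat map of all 40 genes shows higher values of part of the genes in hypoxic FADU cells and of nearly all in the METTL4-si libraries of BFTC909, lower values with METTL4-OE, a mixture with RP11-390F4.3-OE, and lower values in the mutant clones. The median member stood 0.41 and 0.53 above the normoxic mean in the 2 hypoxic Scr-si libraries of FADU and 0.52 and 0.76 above it in the METTL4-si libraries, on the log2 scale. In BFTC909 it stood 0.21 and 0.22 above normoxia in the hypoxic Scr-si libraries and 1.64 and 1.85 above it in the METTL4-si libraries. In the overexpression table it stood at -0.67 and -0.68 relative to the control vector in METTL4-OE and at 0.35 and 0.36 in RP11-390F4.3-OE. The median of all genes passing the filter lay between -0.03 and 0.02 in every library.

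**Figure D2:**
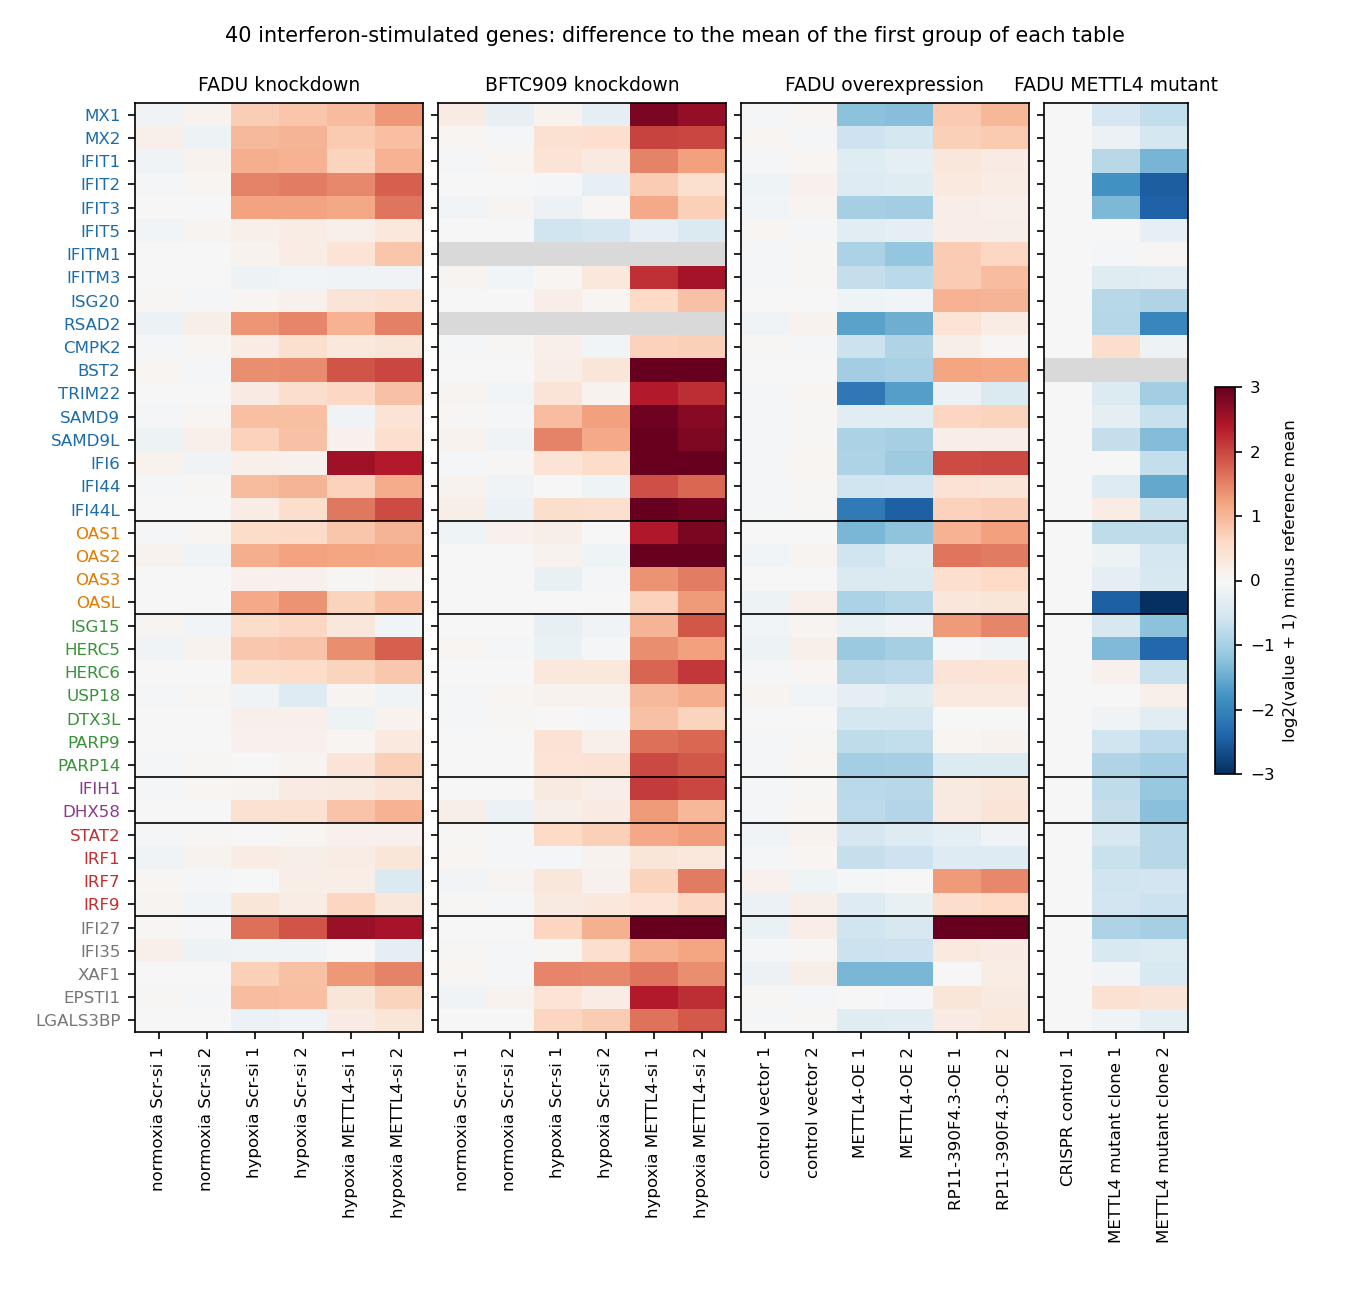
Heat map of the members (rows, with label color by role and lines between roles) in the 21 libraries (columns), colored by log2(value + 1) minus the mean of the normoxia, control vector or CRISPR control group of the same table. The color scale ends at -3 and 3, and gray marks a gene that is not listed in that table. The METTL4-si libraries of BFTC909 are the most uniformly red, and the METTL4-OE libraries are blue in nearly every row.

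Hypoxia against normoxia in FADU is one of the comparisons that chose the genes, so its values are a description. Of the 40 members, 21 were at least 1.3-fold higher on the log2(value + 1) scale with no overlap between the groups and 0 were lower by that rule, beside 13.4% of 16324 genes higher and 14.0% lower. The members' median difference was 0.43, against -0.03 over all genes. By role, 11 of the 18 restriction genes were higher, 3 of the 4 genes of the OAS family, 3 of 7 in the ISG15 and PARP group, 1 of 2 sensors, 0 of 4 signalling genes and 3 of the other 5.

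IFIT2, which binds viral RNA, had values of 31.6 and 34.4 in normoxia and 95.0 and 97.4 in hypoxia, a difference of 1.52. IFIT3, its partner, went from 38.1 and 38.8 to 90.6 and 89.7, and IFIT1 from 25.2 and 29.8 to 59.8 and 57.5. These 3 neighbours on chromosome 10 all showed hypoxic libraries well above both normoxic ones, whereas IFIT5 of the same cluster had 17.4 and 19.7 against 20.6 and 21.6, a difference of only 0.18. RSAD2 (viperin), which makes a chain-terminating nucleotide, went from 6.65 and 8.62 to 20.5 and 22.6, and BST2 (tetherin), which holds virions on the cell surface, from 2.70 and 2.46 to 8.45 and 8.48. Both were separated by a gap larger than the spread of either group. MX1, MX2, SAMD9, SAMD9L and IFI44 were higher by 0.78 to 1.00, and TRIM22, IFI44L and CMPK2 by 0.36 to 0.39. IFITM3, which blocks membrane fusion, was at 124 and 124 in normoxia and 112 and 117 in hypoxia, and IFITM1, ISG20 and IFI6 differed by 0.09 to 0.16.

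OASL went from 49.7 and 50.3 to 111 and 128, and OAS2 from 4.57 and 3.89 to 10.1 and 11.0. OAS1 was higher by 0.56, and OAS3, the long form of the family, had 151 and 151 against 166 and 166, a difference of 0.14 with no overlap. Among the ISG15 genes, HERC5, the main ligase for ISG15, went from 34.9 and 40.9 to 66.5 and 69.2. ISG15 had 30.5 and 27.4 against 42.5 and 45.3, and HERC6 24.0 and 23.3 against 34.5 and 34.8. USP18, which removes ISG15 and restrains the receptor, lay on the other side, with 4.82 and 5.14 against 4.54 and 3.60. DTX3L, PARP9 and PARP14 differed by 0.05 to 0.15. Of the RNA sensors, DHX58 (LGP2) was higher by 0.46 and IFIH1 (MDA5) by 0.16. None of the 4 signalling genes reached 1.3-fold: STAT2 had 53.7 and 57.2 against 55.5 and 57.7, and IRF1, IRF7 and IRF9 differed by 0.10 to 0.29. Of the remaining genes, IFI27, a mitochondrial protein, had the largest difference of all members, from 9.27 and 8.62 to 30.1 and 35.9 (1.77). EPSTI1 and XAF1 were higher by 0.91 and 0.79, and IFI35 and LGALS3BP lay at -0.10 and -0.15. FADU normoxia replicate 1 was the library with breast luminal markers in this comparison, and without it the count stayed at 21 and the median at 0.44.

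The METTL4-si libraries of hypoxic BFTC909 cells, also part of the choice of genes, held the largest differences. Of the 38 listed members, 34 were at least 1.3-fold higher than in hypoxic Scr-si cells with no overlap, and 0 were lower. Of the 35 that passed the filter (2 or more libraries with a value of 1 or higher) it was 31, beside 16.6% of 14869 genes higher and 13.2% lower. The filter was passed through the METTL4-si libraries alone by 8 genes, BST2, DHX58, ISG20, MX2, OAS1, OAS2, TRIM22 and USP18, which had to differ to be counted. Among the other 27 members, 23 were higher, with a median difference of 1.496.

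IFI6, a mitochondrial and endoplasmic reticulum protein that limits flavivirus replication, had values of 1.16 and 1.39 in the Scr-si libraries and 92.2 and 120 in the METTL4-si libraries, a ratio of means of 83.5. These values rest on 24 and 29 reads against 1966 and 2383. Of the members, it had the largest difference in this comparison. BST2 went from 0.193 and 0.334 to 7.50 and 9.72, on 4 and 7 reads in the controls. MX1, a GTPase that traps viral ribonucleoproteins, went from 1.83 and 1.15 to 17.4 and 15.4, and IFITM3 from 11.4 and 13.7 to 52.6 and 65.8. TRIM22, IFI44L, IFI44, SAMD9 and SAMD9L were higher by 1.65 to 2.54, and MX2 by 1.53 from 9 and 10 reads. In the IFIT cluster, IFIT1 and IFIT3 were higher by 1.02 and 1.00, IFIT2 by 0.76, and IFIT5 had 18.4 and 19.8 against 23.7 and 20.8, which fell short of 1.3-fold. ISG20, an exonuclease, was higher by 0.60, from 12 and 9 reads. CMPK2, which did not pass the filter, had 0.241 and 0.0478 against 0.797 and 0.806.

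OAS2 had 5 reads and 1 read in the Scr-si libraries and 195 and 178 in the METTL4-si libraries. OAS1 had 5 and 2 reads against 102 and 134. OAS3, which was well counted, went from 15.8 and 18.0 to 49.1 and 55.8 (1.58). OASL was at 0 in all 4 Scr-si libraries and at 0.610 and 1.41, on 13 and 28 reads, in the METTL4-si libraries. Every listed member of the family was thus higher, from very different starting levels. ISG15 went from 3.28 and 3.73 to 9.33 and 17.5, the widest gap between METTL4-si replicates among the genes of its conjugation pathway. HERC5, HERC6, PARP9 and PARP14 were higher by 1.39 to 1.61, USP18 by 0.92 and DTX3L by 0.80. PARP14, an ADP-ribosyltransferase, had 56.5 and 56.9 against 168 and 156. Of the RNA sensors, IFIH1 went from 3.18 and 3.01 to 13.8 and 12.8, and DHX58 was higher by 0.94, from 13 and 15 reads. The signalling genes had small differences: STAT2 had 33.8 and 36.7 against 50.5 and 53.6 (0.55), IRF1 was higher by 0.31 and IRF9 by 0.22, and IRF7, which did not pass the filter, had 0.578 and 0.382 against 0.985 and 2.72. IFI27 went from 4.48 and 6.35 to 41.6 and 47.9, and EPSTI1, LGALS3BP and IFI35 were higher by 1.98, 1.05 and 0.86. XAF1, a proapoptotic zinc finger protein, was the member without a difference, with 56.0 and 54.9 against 62.0 and 53.5.

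METTL4-si replicate 2 of BFTC909 was the library with markers of another epithelium, with KRT8 at 715 against 2.60 to 7.55 elsewhere and GATA3 at 128 against 0.573 to 0.964. In replicate 1 KRT8 was at 5.02 and GATA3 at 0.844, and the median member stood 1.64 above normoxia, against 1.85 in replicate 2. The part of the other cells in these values was not tested. Without replicate 2 the count of higher genes was 31 and the median 1.49, against 1.53 with it. In bulk RNA a change in the share of cells and a change of RNA per cell cannot be told apart. The hypoxia-induced genes examined, such as CA9, were all lower in the METTL4-si than in the hypoxic Scr-si libraries of BFTC909. SLC2A1 had 88.3 and 96.3 in normoxia, 485 and 505 in hypoxic Scr-si and 172 and 183 in METTL4-si libraries. BNIP3 had 97.2 and 98.0, 353 and 346, and 120 and 85.1 in the same groups. Why was not tested.

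METTL4-OE against the control vector in normoxic FADU cells was the last comparison of the choice. All 40 members passed the filter, 30 were at least 1.3-fold lower with no overlap and 0 were higher, beside 11.2% of 15644 genes lower and 8.37% higher. The median difference was -0.70. All 40 differences were below 0.

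IFI44L, a GTPase-like protein encoded next to IFI44, had 15.17 and 16.01 with the control vector and 2.78 and 2.04 with METTL4-OE, a difference of -2.29. TRIM22, a ubiquitin ligase, had 10.1 and 11.2 against 1.64 and 2.72, and RSAD2 8.73 and 10.4 against 2.44 and 2.81. These 3 genes had the lowest differences among the restriction genes. MX1, IFITM1, IFIT3 and BST2 were lower by 1.00 to 1.25 on the log2 scale, and IFI6, SAMD9L, CMPK2, IFITM3, IFI44 and MX2 by 0.57 to 1.00. IFIT2, IFIT1, SAMD9 and IFIT5 lay between -0.31 and -0.38, and ISG20 at -0.10. In the OAS family OAS1 had 5.82 and 5.86 against 1.64 and 1.95, OASL 73.7 and 92.5 against 42.2 and 45.0, and OAS2 and OAS3 were lower by 0.50 and 0.43. HERC5 had 65.8 and 80.7 against 33.3 and 36.0, and PARP14 244 and 266 against 125 and 128. ISG15, the modifier itself, had 25.9 and 28.8 against 23.8 and 25.4, a difference of -0.15. Its main ligase HERC5, as well as HERC6, PARP9, PARP14 and DTX3L, were lower by 0.52 to 1.05. The sensors IFIH1 and DHX58 lay at -0.82 and -0.83. IRF1 had 43.7 and 47.6 against 27.9 and 29.5, STAT2 and IRF9 lay at -0.43 and -0.30, and IRF7 at -0.02 with overlapping libraries. XAF1 had 2.24 and 3.07 against 0.398 and 0.408, and EPSTI1 had 5.44 and 5.21 against 5.32 and 5.08. USP18, LGALS3BP and IFI35 lay between -0.32 and -0.63, and IFI27 at -0.54. Of 10 genes known as hypoxia-induced, 9 were higher with METTL4-OE, CA9 with 9.39 and 9.15 against 0.906 and 0.744. The members and most of the hypoxia genes thus lay on opposite sides.

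**Figure D3:**
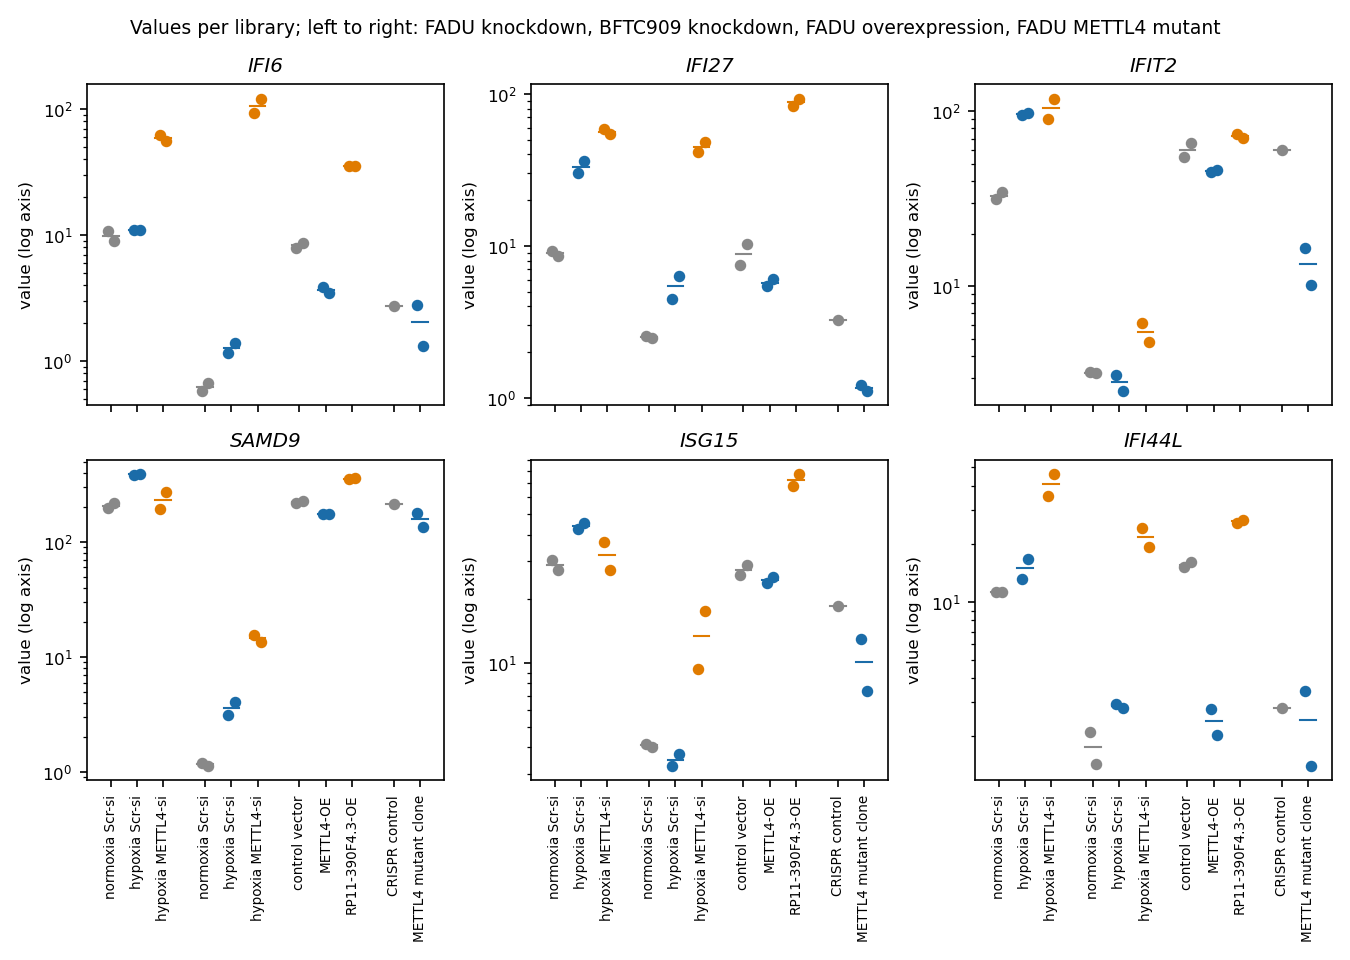
Values per library (points) and group means (lines) of 6 members on a log axis, by group within each of the 4 tables, which were normalized separately. IFI6 is highest in METTL4-si libraries of BFTC909 (92.2 and 120), and IFI27 in RP11-390F4.3-OE libraries (83.7 and 92.3).

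Among the 35 members that passed the filter in all 3 tables, 14 had all 3 directions by the rule of 1.3-fold and no overlap, 15 had 2, 4 had 1 and 2 had 0. The last 2 were IFIT5 and IRF9. The 14 were BST2, DHX58, HERC5, HERC6, IFI27, IFI44, IFIT2, IFIT3, MX1, MX2, OAS1, OAS2, SAMD9L and TRIM22. Among them, BST2, DHX58, MX2, OAS1, OAS2 and TRIM22 passed the BFTC909 filter through the METTL4-si libraries alone, so their direction there was fixed by the filter. The genes were chosen as a group with these directions in view, so the counts describe how uniform the group was. The shares over all genes are not given here.

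The comparisons that follow were not named in the choice of genes, although each shares libraries with one that was. They were tested by limma over all genes of the table, with Benjamini-Hochberg adjusted p-values, and a gene was called at an adjusted p under 0.05 and a difference of at least 1.3-fold.

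In hypoxic FADU cells the libraries labelled METTL4-si differed from Scr-si in both directions. Of the 40 members, 9 rose and 3 fell, beside 12.5% of 16324 genes that rose and 15.3% that fell, and the median difference was 0.10. IFI6 had 11.0 and 10.9 in Scr-si and 62.4 and 55.4 in METTL4-si libraries, and rose by 2.32 ± 0.11 (SE, limma adjusted p = 0.000105). IFI44L rose from 13.2 and 16.6 to 35.5 and 46.1 (1.39 ± 0.15, limma adjusted p = 0.00126). The other genes that rose were HERC5 (0.77), IFI27 (0.75), XAF1 (0.61), BST2 (0.54), PARP14 (0.50), DHX58 (0.50) and LGALS3BP (0.46), with limma adjusted p-values of 0.00304 to 0.0165. SAMD9 had 385 and 388 against 192 and 274 and fell by 0.75 (SE 0.16, limma adjusted p = 0.0117), with 196 and 216 in normoxia. OASL fell from 111 and 128 to 80.4 and 94.5 and ISG15 from 42.5 and 45.3 to 37.01 and 27.41, the latter at a limma adjusted p of 0.0495.

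By role, 3 of the 18 restriction genes rose and 1 fell, none of the OAS family rose and 1 of 4 fell, 2 of 7 genes of the ISG15 and PARP group rose and 1 fell, 1 of 2 sensors rose, and none of the 4 signalling genes was called. The IFIT genes lay between -0.22 and 0.18. SAMD9L and EPSTI1 had differences of -0.47 and -0.39 with no overlap and limma adjusted p-values of 0.0658 and 0.0701, and IFITM1 and OAS1 of 0.47 and 0.37 at 0.0556 and 0.0598. The counts rest on single libraries. METTL4-si replicate 1 held the breast luminal markers, and without it 14 members rose and 3 fell, the same counts as without it and normoxia replicate 1 together. Without METTL4-si replicate 2 there were 8 that rose and 5 that fell. Without hypoxic Scr-si replicate 1 there were 3 that rose and 1 that fell, and without hypoxic Scr-si replicate 2 there were 4 and 0. The ISG15 call was lost under 10 of the alternative settings, while IFI6, IFI44L and IFI27 stayed called under all of those run for single genes. Of 10 genes known as hypoxia-induced 9 fell in this comparison. SLC2A1 went from 1281 and 1409 to 353 and 364, with 371 and 352 in normoxia. VEGFA did not fall, and was not induced in these FADU cells. It had 237 and 248 in normoxia, 176 and 189 in hypoxic Scr-si and 235 and 267 in METTL4-si libraries. NDRG1 had 144 and 146 in normoxia, 2650 and 3135 in hypoxic Scr-si and 152 and 171 in METTL4-si libraries. PDK1 stayed somewhat above normoxia, with 51.6 and 58.2 against 39.7 and 40.1. These METTL4-si libraries, labelled hypoxic, thus lay near normoxia in such genes, and why was not tested.

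In BFTC909 hypoxia against normoxia, 35 members could be tested, of which 10 rose and 1 fell, beside 17.9% of 14869 genes that rose and 18.3% that fell. The median difference was 0.25. Of the 35, 8 passed the filter through the METTL4-si libraries alone, MX2 among them, so they were low in the libraries compared here. XAF1 had 20.4 and 18.9 in normoxia and 56.0 and 54.9 in hypoxia, and rose by 1.45 ± 0.09 (SE, limma adjusted p = 4.62e-05). SAMD9L rose from 0.806 and 0.545 to 3.66 and 2.68 (1.31 ± 0.18, limma adjusted p = 0.00117), and SAMD9 from 1.21 and 1.13 to 3.13 and 4.06 (1.08 ± 0.15, limma adjusted p = 0.00117). These neighbours on chromosome 7 encode related proteins that inhibit translation. IFI27 rose by 0.85, LGALS3BP by 0.70, STAT2 by 0.65 and PARP14 by 0.42. STAT2 had 22.8 and 21.3 in normoxia and 33.8 and 36.7 in hypoxia, and was the 1 signalling gene called here. IFI44L, IFI6 and MX2 rose by 0.50, 0.48 and 0.48 from low levels, MX2 from 2 and 0 reads to 9 and 10, and their calls were lost when either hypoxic Scr-si library was left out. IFIT5 had 28.4 and 28.5 in normoxia and 18.4 and 19.8 in hypoxia, and fell by 0.55 (SE 0.10, limma adjusted p = 0.00306).

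IFIT2, IFIT3, BST2, MX1 and ISG15, which were higher in hypoxic FADU cells, were not called here. IFIT2 had 3.22 and 3.19 against 3.13 and 2.53, IFIT3 7.88 and 9.06 against 7.37 and 8.65, and BST2 1 read in each normoxic library against 4 and 7. MX1 and ISG15 lay at -0.09 and -0.18. The OAS family had 0 calls among 3 tested genes, RNA sensors 0 of 2. OAS1 had 0 and 5 reads in normoxia and 5 and 2 in hypoxia, and OAS2 had 3 and 4 against 5 and 1. With so few reads, the lack of a call for OAS1 and OAS2 does not show that they were unchanged. Whether hypoxia acted differently in the lines was not tested, since the tables were normalized separately.

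RP11-390F4.3-OE against the control vector gave 18 members that rose and 2 that fell, beside 16.5% of 15644 genes that rose and 12.5% that fell. The median difference was 0.32. IFI27 had 7.44 and 10.2 with the control vector and 83.7 and 92.3 with RP11-390F4.3-OE, a rise of 3.19 ± 0.12 (SE, limma adjusted p = 9.9e-11) and a ratio of means of 9.95. IFI6 rose from 7.97 and 8.70 to 35.3 and 35.6 (1.97 ± 0.10, limma adjusted p = 2.09e-09), and OAS2 from 4.91 and 5.54 to 18.0 and 17.2 (1.58 ± 0.12, limma adjusted p = 1.33e-07). In these genes the groups were separated by many times their spread.

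ISG15 rose from 25.9 and 28.8 to 67.6 and 77.1 (1.37), and the transcription factor IRF7, which amplifies interferon production, from 4.58 and 3.63 to 11.4 and 12.7 (1.36 ± 0.13, limma adjusted p = 1.12e-06). BST2, OAS1 and ISG20 rose by 1.17, 1.13 and 1.03. MX1, IFITM3, MX2, IFI44L, IFITM1 and SAMD9 rose by 0.66 to 0.89, and OAS3, IRF9, IFI44 and HERC6 by 0.40 to 0.56. By role, 10 of 18 restriction genes and 3 of 4 OAS genes rose, 2 of the 7 genes of the ISG15 and PARP group rose and 1 fell, and among the signalling genes 2 rose and 1 fell. PARP14 had 244 and 266 against 191 and 192 and fell by 0.41 (SE 0.05, limma adjusted p = 1.15e-05), and IRF1 had 43.7 and 47.6 against 34.8 and 34.6 and fell by 0.39 (SE 0.06, limma adjusted p = 0.000219). Both calls were lost without control vector replicate 2. IFIT1, IFIT2, IFIT3, IFIT5, IFIH1, DHX58, RSAD2, OASL, LGALS3BP and EPSTI1 had limma adjusted p-values of 0.000184 to 0.0478 at differences of 0.18 to 0.35, under 1.3-fold, while STAT2 stood at -0.20 with an adjusted p of 0.0478 in the same test. Without RP11-390F4.3-OE library 2, which held some breast luminal markers, 19 members rose and 2 fell. METTL4-OE and RP11-390F4.3-OE share the control vector libraries, so their differences are not independent. All 10 genes known as hypoxia-induced rose with RP11-390F4.3-OE as well. Side by side the differences of members were -2.29 and 0.71 for IFI44L, -0.54 and 3.19 for IFI27, -0.995 and 1.97 for IFI6, and -0.15 and 1.37 for ISG15.

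**Figure D4:**
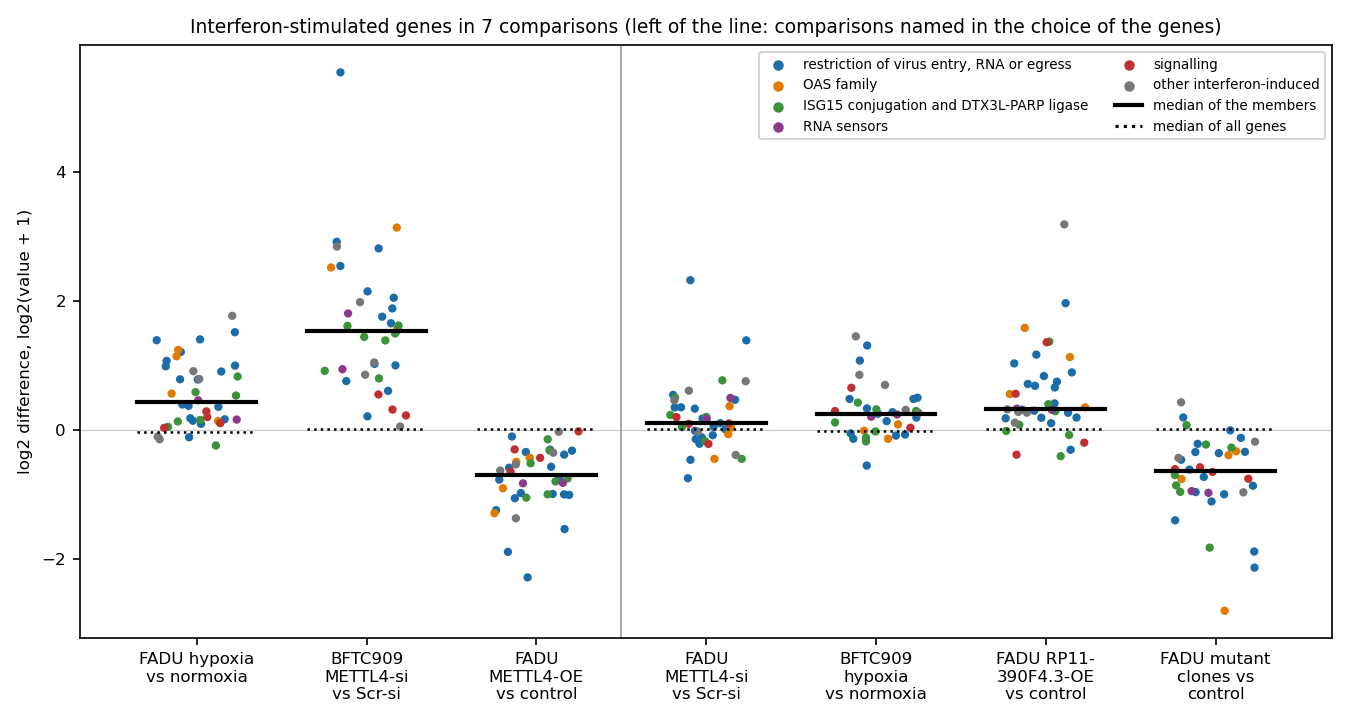
Log2 differences of the members that passed the filter in the 7 comparisons, with a point for each gene colored by role, a solid line at the members' median and a dotted line at the median of all genes. The median is 1.53 in METTL4-si libraries of BFTC909 and -0.70 with METTL4-OE, and the dotted lines lie close to 0.

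In the hypoxic METTL4 mutant clones, with 1 control library and so no replicate check, most members were lower than in the CRISPR control. Of 38 members that passed the filter, 23 were at least 1.3-fold lower in both clones and 1 was higher, beside 11.7% of 13461 genes lower and 10.3% higher. The median of the mean differences was -0.63, with -0.49 in clone 1 and -0.75 in clone 2. OASL had 53.6 in the control, 8.97 in clone 1 and 5.10 in clone 2, and IFIT2 60.5, 16.5 and 10.1. IFIT3 had 34.4, 12.9 and 5.58, and HERC5 37.1, 14.3 and 6.503. These 4 genes had the largest differences, from -1.83 to -2.81. RSAD2 lay at -1.40 and IFIT1 at -1.11. IFI44, SAMD9L, PARP14, IFIH1, DHX58, IFI27, ISG15 and ISG20 lay between -0.863 and -0.9997. All 4 signalling genes were lower in both clones, STAT2 with 42.2, 30.04 and 23.3 and IRF1 with 26.7, 16.4 and 14.5, and IRF7 and IRF9 at -0.58 and -0.61. The others that were lower in both by 1.3-fold were MX1, TRIM22, OAS1, PARP9 and IFI35. EPSTI1 had 3.79, 5.60 and 5.29 and was the 1 higher gene. IFITM1, IFIT5, USP18 and CMPK2 had mean differences of -0.12 to 0.19, IFI6 had 2.76, 2.80 and 1.31, and SAMD9 215, 178 and 135. In this table every gene has at least 10 reads in each library, so a gene silent in any of them would be absent, as BST2 is. The clones each come from a single cell, so clone and mutation cannot be told apart.

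The METTL4-si libraries of the lines can be set side by side, since they come from separate tables and share no library, but the tables were normalized separately and the difference was not tested. IFI6 had the largest difference in both, 2.32 in FADU and 5.55 in BFTC909, and IFI44L had 1.39 and 2.54. OAS2 had 0.04 and 3.14 and IFITM3 0.01 and 2.15, so genes near 0 in FADU were among the highest in BFTC909. XAF1 showed the opposite, 0.61 and 0.05. In 8 members that passed both filters, every METTL4-si library was lower than Scr-si in FADU and higher in BFTC909. The share of all genes that did so is not given here, so the count is a description. MX2, among the 8, passed the BFTC909 filter through the METTL4-si libraries alone. For IFIT1 the groups in FADU were barely apart, with 57.3 in the higher METTL4-si and 57.5 in the lower Scr-si library. For SAMD9, SAMD9L, ISG15 and EPSTI1 the difference was at least 1.3-fold in both lines, while DTX3L, IFIT1, MX2 and OAS3 had -0.18, -0.22, -0.14 and -0.067 in FADU. OASL, which did not pass the filter in BFTC909, lay on the same sides.

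**Figure D5:**
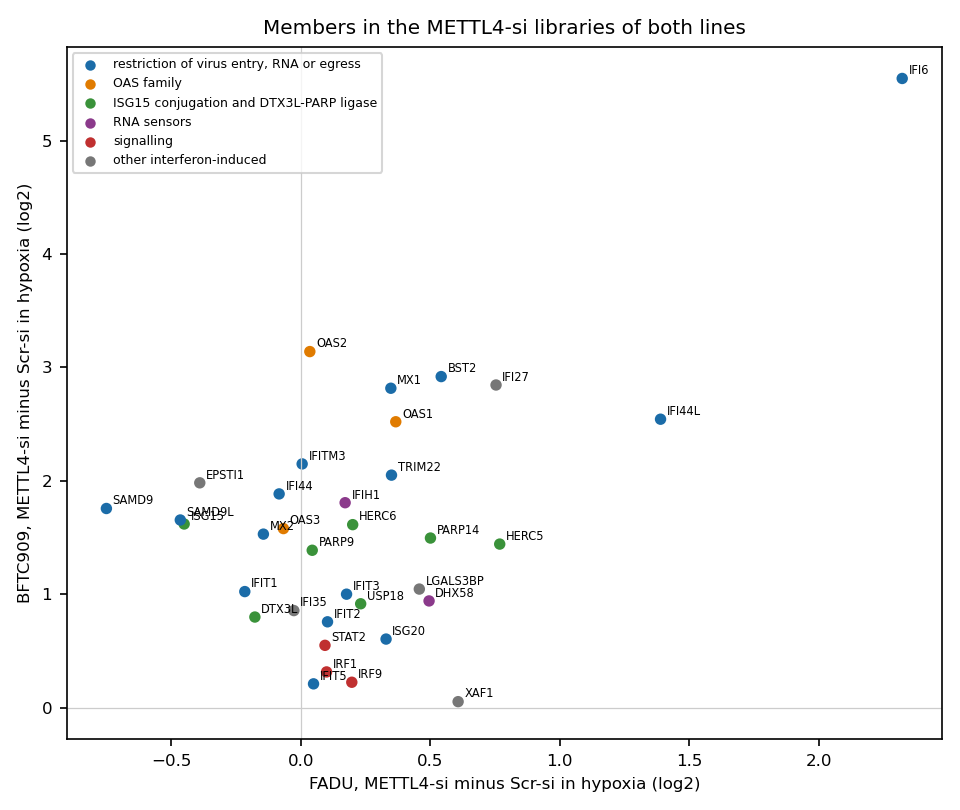
Log2 difference of METTL4-si against Scr-si in hypoxia for each member that passed the filter in both knockdown tables, FADU on the horizontal and BFTC909 on the vertical axis, colored by role. All points lie above 0 for BFTC909, while SAMD9 (-0.75), SAMD9L, ISG15 and EPSTI1 lie farthest to the left of 0 for FADU.

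The genes upstream of the members were taken from a list of the pathway outside the 40. Of 10 interferon genes in that list, IFNE, the epithelial type I interferon, was the one listed in FADU, with 3.53 and 4.24 in normoxia, 5.17 and 4.38 in hypoxia and 4.90 and 8.41 in METTL4-si libraries, and 0 were listed in BFTC909. The receptor subunit IFNAR1 had 171 to 210 across the FADU knockdown libraries, and in BFTC909 56.7 and 57.4 against 51.2 and 46.3 with METTL4-si. IFNAR2, its partner, rose in FADU METTL4-si libraries from 22.6 and 22.3 to 29.9 and 35.1 (0.51 ± 0.10, limma adjusted p = 0.00868), and had 11.5 and 10.5 against 17.9 and 15.96 in BFTC909. JAK1 had 445 and 451 against 327 and 282 there, and TYK2 51.1 and 57.1 against 57.5 and 71.2. Of the 9 receptors and kinases, 1 rose and 0 fell in FADU METTL4-si, 1 of 8 rose in BFTC909 hypoxia (IL10RB), and 2 of 9 rose with RP11-390F4.3-OE (IFNLR1 and IFNGR2), beside 12.5%, 17.9% and 16.5% of all tested genes. These counts lay near the shares over all genes.

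Among the genes of nucleic acid sensing, RIGI, the cytoplasmic RNA sensor related to IFIH1, had 44.9 and 46.4 in normoxic FADU and 89.0 and 91.1 in hypoxic Scr-si libraries, a difference of 0.97. In BFTC909 it fell with hypoxia, from 6.4 and 7.34 to 4.095 and 3.92 (fell by 0.65, SE 0.12, limma adjusted p = 0.00405), and stood at 18.2 and 16.4 in the METTL4-si libraries. It rose with RP11-390F4.3-OE by 0.71 (SE 0.08, limma adjusted p = 8.5e-06), as did IFI16, a nuclear DNA sensor, by 1.08, TICAM1, the TLR3 adaptor, by 0.92, and STING1, the adaptor of cytosolic DNA sensing, by 0.57. In FADU METTL4-si libraries STING1 rose by 0.41 and ADAR and IFI16 fell by 0.44 and 0.57, and SOCS1 rose by 0.77. The feedback inhibitors SOCS1, SOCS3, PTPN1 and PTPN2 fell in BFTC909 hypoxia, 4 of 5 tested, beside 18.3% of all genes, with SOCS3 from 39.5 and 39.9 to 12.7 and 13.0 (limma adjusted p = 3.07e-05). SOCS3 rose with RP11-390F4.3-OE from 13.5 and 11.6 to 62.9 and 65.7 (2.27 ± 0.08, limma adjusted p = 1.18e-10), and SOCS1 rose by 0.86.

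A further list held 40 interferon-induced genes outside the members. In FADU hypoxia 13 of the 35 that passed the filter were higher and 3 lower by 1.3-fold with no overlap, beside 13.4% and 14.0% of all genes. In BFTC909 METTL4-si libraries 24 of 34 were higher and 0 lower, beside 16.6% and 13.2%, and with METTL4-OE 17 of 35 were lower and 0 higher, beside 11.2% and 8.37%. These comparisons chose the members, so the counts are given without a test. GBP2, a guanylate-binding protein, had 0.723 and 1.00 against 8.11 and 7.90 in BFTC909 METTL4-si libraries, and TNFSF10 (TRAIL) had 19.6 and 22.1 against 2.93 and 3.94 with METTL4-OE. In the tested comparisons 6 of 35 rose and 5 fell in FADU METTL4-si, beside 12.5% and 15.3% of all genes, and 6 of 34 rose and 8 fell in BFTC909 hypoxia, beside 17.9% and 18.3%, so that the list lay near the shares over all genes in both. With RP11-390F4.3-OE 11 of 35 rose and 0 fell, beside 16.5% and 12.5%. NLRC5, the activator of MHC class I genes, rose by 1.14 in FADU METTL4-si (limma adjusted p = 0.000463), and DDX60, a helicase that aids RIGI, fell there by 0.46. UBA7, the enzyme that activates ISG15, rose by 1.32 in BFTC909 hypoxia (limma adjusted p = 0.000183), where PNPT1 and LAP3 fell by 0.94 and 0.90. DDX60 and HELZ2 rose by 0.95 and 1.00 with RP11-390F4.3-OE.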

How the data were processed

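RNA-seq was read from 21 libraries of 2 human cell lines. Per the study's methods, the authors used Trim Galore for trimming, HISAT2 with hg19 as the genome, htseq-count for gene counts and the TMM scaling of edgeR. The versions, annotation and strand setting are not given in the sources used here. The deposited values are signal: CPM, read counts scaled to library size, with TMM scaling, in 4 tables that were normalized separately. All values above 0 that stood for at most 200 reads came out within 0.1 of a whole number of reads (100% of these values), and the libraries held 17781791 to 25410656 reads on genes. For the mutants, 40.9 to 43.0% of the values belonged to rows that name no gene, and these were left out. The authors' tables of their own edgeR fold changes and p-values were not used. There were 0 unused columns of per-sample values.

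Groups came from the labels. Values were tested on log2(value + 1) with limma 3.58.1 (R 4.3.3) with trend, over all genes that reached a value of 1 in 2 or more libraries, in 1 fit per table, with Benjamini-Hochberg adjusted p-values. A gene was called at an adjusted p under 0.05 and at least 1.3-fold. The contrasts that chose the members, and the mutant clones with 1 control library, got no test. In those contrasts a gene counted when it differed by at least 1.3-fold with no overlap between groups. In the mutants a gene counted when both clones differed from the control by at least 1.3-fold in the same direction. Members and lists were chosen with earlier results of these data known. By the rule for named genes, all 40 members were accounted for, with values by library for those of a subgroup with the highest mean or the largest difference, and, from the pathway lists, the ligands, receptors, kinases and the called genes with the largest differences. A few further genes, such as CMPK2, were given by library after their values were seen, and 1 pathway gene is not reported here. Alternatives were the pseudocount, the filter, centring, trend, the compared groups alone, left-out libraries, a replicate block and edgeR 4.0.16 on the recovered reads. The scripts were tested on simulated data. Tables were handled in Python 3.11.15 with pandas 2.3.3, numpy 2.4.6 and matplotlib 3.10.9.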

Additional observations from a re-analysis of the deposited data

Results flagged for a closer look

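In 8 members the libraries labelled METTL4-si lay on opposite sides of hypoxic Scr-si in the lines, with every library of FADU lower and every library of BFTC909 higher. The share of all genes that did so is not given here, so the count does not show whether the members are unusual. The differences on the log2(value + 1) scale were -0.75 in FADU and 1.76 in BFTC909 for SAMD9, and -0.47 and 1.65 for its neighbour SAMD9L. They were -0.45 and 1.62 for ISG15, and -0.39 and 1.98 for EPSTI1. In DTX3L (-0.18 and 0.80), IFIT1 (-0.22 and 1.02), MX2 (-0.14 and 1.53) and OAS3 (-0.067 and 1.58) the FADU difference was under 1.3-fold. In each line 1 of the METTL4-si libraries (number 1 in FADU, number 2 in BFTC909) held markers of other cells. In FADU these included the fibroblast collagen COL3A1 beside the breast luminal markers. The part of the other cells in these differences was not tested.

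In hypoxia against normoxia, 6 members lay on opposite sides in the same way, again without a share over all genes beside the count. Every hypoxic library was higher in FADU and lower in BFTC909 for IFIT2 (1.52 and -0.14), ISG15 (0.59 and -0.18), IFIT5 (0.18 and -0.55) and OAS3 (0.14 and -0.14). LGALS3BP (-0.15 in FADU and 0.70 in BFTC909) and USP18 (-0.24 and 0.12) lay the other way. USP18 rests on 6 and 9 reads in normoxic and 9 and 9 in hypoxic BFTC909, and passed the filter there through the METTL4-si libraries alone. For none of these 14 pairs was the difference between the lines tested, since the tables were normalized separately.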

How the results depend on the processing

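No result changed direction. In FADU METTL4-si 9 members rose, 3 to 14 when 1 library was left out, 14 without the libraries with breast luminal markers (chosen after seeing the data) and 2 at 2-fold. There 3 fell, 0 to 5 when 1 library was left out, 5 at an unadjusted p and 0 at 2-fold. In BFTC909 hypoxia 10 rose and 1 fell, against 3 and 0 at 2-fold. With RP11-390F4.3-OE 18 rose, 8 at 2-fold, and 2 fell, 0 to 2 when 1 library was left out, 1 with a pseudocount of 5 and 0 at 2-fold. The median difference of 0.43 in FADU hypoxia was 0.32 with a pseudocount of 5 and 0.41 to 0.53 with 1 library left out. The median of 1.53 in BFTC909 METTL4-si was 1.84 and 1.02 with pseudocounts of 0.1 and 5, 1.47 with no filter, 1.43 after median centring, 1.49 to 1.52 with 1 library left out and 1.49 without the libraries with breast luminal markers, and its 31 higher members became 19 at a mean value of at least 5, which tests fewer genes. The median of -0.70 with METTL4-OE was -0.76 and -0.50 with pseudocounts of 0.1 and 5, and that of -0.63 in the mutant clones was -0.36 with a pseudocount of 5. The cause was not tested.

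With the replicate number as a block, 10 members rose and 4 fell in FADU METTL4-si, 10 rose and 1 fell in BFTC909 hypoxia, and 18 rose and 2 fell with RP11-390F4.3-OE, whose numbers were read from the column names. Same-numbered libraries did not pair: their deviations correlated at -0.07 to 0.15, except 0.65 between normoxia and METTL4-si in FADU, where both libraries numbered 1 held the luminal markers. Genes with few reads in BFTC909, such as OAS2 and BST2, limit the precision of their differences.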
